A study of Mus musculus with 18 samples.

Results

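Dual specificity phosphatases (Dusp), Sprouty proteins (Spry) and Spred1 act as brakes on the MAP kinase cascades, and 8 of their genes were followed here through the brains of 2 estrogen receptor knockout lines and wild type mice. The genes were Dusp1, Dusp4, Dusp5, Dusp6, Dusp14, Spry2, Spry4 and Spred1. They were picked by name, and every probe set that the array annotation assigns to one of these symbols was taken, which gave 19 probe sets among 45037. For each gene the probe set with the highest mean over all 18 arrays led, so brightness chose the leading probe sets and is no finding. All 8 leading probe sets were bright enough for the test, which covered 13072 genes, and 16 of the 19 probe sets passed the same limit on low signal. Both Spry4 probe sets that failed it, 1422020_at and 1422021_at, and 1445228_at of Spred1 are given only by their range.

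RNA of whole brains from 8-week-old C57BL/6 mice was hybridised to Affymetrix mouse expression arrays. The groups were ERalphaKO females, ERalphaKO males, ERbetaKO females, ERbetaKO males, wild type females and wild type males, with 3 arrays each. ERalphaKO names a knockout of the estrogen receptor alpha gene Esr1 and ERbetaKO one of the estrogen receptor beta gene Esr2. The labels do not describe the disrupted alleles and name no treatment, and they do not say whether each sample came from its own animal, so the p-values reflect how much these samples vary, which may be technical. In a whole brain, fewer cells of a type and less RNA per cell cannot be told apart.

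MAP kinases are switched on when a kinase above them phosphorylates a threonine and a tyrosine in their activation loop, and dual specificity phosphatases switch them off by removing both phosphates. Many of these phosphatases are themselves induced by the kinases they silence, which closes a negative feedback loop. Sprouty and Spred proteins act further up, between receptor tyrosine kinases, Ras and Raf, and several of them are also transcribed in response to ERK. In neurons the ERK branch links synaptic activity and neurotrophins to immediate early genes such as Fos and Egr1.

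The values are linear intensities that the authors scaled so that each array had the same trimmed mean. They are called signals below, and they are not compared between probe sets. Log2 differences are on the scale log2(signal + 63.63), where the added constant is the 25th percentile of all signals, and so they understate the changes of weak probe sets. A gene passed the test when its limma p-value, adjusted over all 13072 genes, was under 0.05. Both knockout lines were set against the same wild type arrays, so their differences from wild type are not independent of each other.

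The labels were checked on the targeted genes. Esr2 had a signal of 271 ± 98 in arrays labelled ERbetaKO, 33.2 ± 22.6 in arrays labelled ERalphaKO and 28.7 ± 11.4 in wild type arrays (SD, n = 6 each), which goes against the label. Esr1 had 197 ± 24.7, 129 ± 21.6 and 143 ± 35.9 in the same order. Where these probe sets lie relative to the disruptions is not known here. For that reason the knockout groups carry the ending -labelled here, and all directions rest on the labels. All 10 listed neuronal markers were measured above the limit on low signal. Cerebellar content differed widely, with Purkinje cell gene Pcp2 between 117 and 299 on 7 arrays and between 1306 and 10790 on the other 11.

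Dusp1 rose in both knockout lines, and it was the only one of the 8 genes that passed the test against wild type in either. Dusp1 is a nuclear phosphatase for p38, JNK and ERK and an immediate early gene in its own right. Its leading and only probe set, 1448830_at, read 1874, 1503 and 1872 in ERalphaKO-labelled females and 2269, 2337 and 2454 in ERalphaKO-labelled males. It read 1934, 1548 and 1874 in ERbetaKO-labelled females and 2118, 2259 and 1920 in ERbetaKO-labelled males. Wild type females gave 987, 995 and 850, and wild type males 1044, 799 and 614. Every knockout array thus lay above every wild type array, while the arrays of the 2 lines overlapped.

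The mean Dusp1 signal was 2051 ± 362 in ERalphaKO-labelled, 1942 ± 241 in ERbetaKO-labelled and 882 ± 161 in wild type arrays (SD, n = 6 each). The log2 difference was 1.16 ± 0.10 (SE) for ERalphaKO-labelled minus wild type, with a 95% interval of 0.94 to 1.38 and an adjusted p of 1.479e-05. For ERbetaKO-labelled minus wild type it was 1.10 ± 0.10, with an interval of 0.88 to 1.31 and an adjusted p of 3.23e-05. Dusp1 ranked 3 by p among the 13072 genes in each comparison. An earlier look at these data had already shown this rise, and it adds no independent evidence. Between ERalphaKO-labelled and ERbetaKO-labelled brains Dusp1 differed by 0.07 ± 0.10, with an interval of -0.15 to 0.29.

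These calls stand against a background in which many genes moved. In ERalphaKO-labelled minus wild type, 1 of the 8 genes passed, and 6.72% of all genes tested did, with 3.07% of all genes higher. In ERbetaKO-labelled minus wild type, 1 of the 8 passed, and 7.50% of all genes did, with 2.91% of all genes higher. That split depended on the scaling, since 381 genes were higher and 600 lower in ERbetaKO-labelled brains here but 134 and 1739 when arrays were scaled to equal medians, and between the lines 819 and 1190 became 1868 and 558. In ERalphaKO-labelled minus wild type it was 401 and 477 here and 213 and 248 with median scaling. All 6 knockout values lay above all 6 wild type values for 2.02% of genes with ERalphaKO-labelled arrays and for 1.63% with ERbetaKO-labelled arrays. The median log2 difference of the 8 genes was 0.33 in ERalphaKO-labelled brains, against -0.03 over all genes tested. In ERbetaKO-labelled brains it was -0.01, against 0.01 over all genes. A count of 1 in 8 lies close to that background and is no result about the 8 genes as a group.

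**Figure D1:**
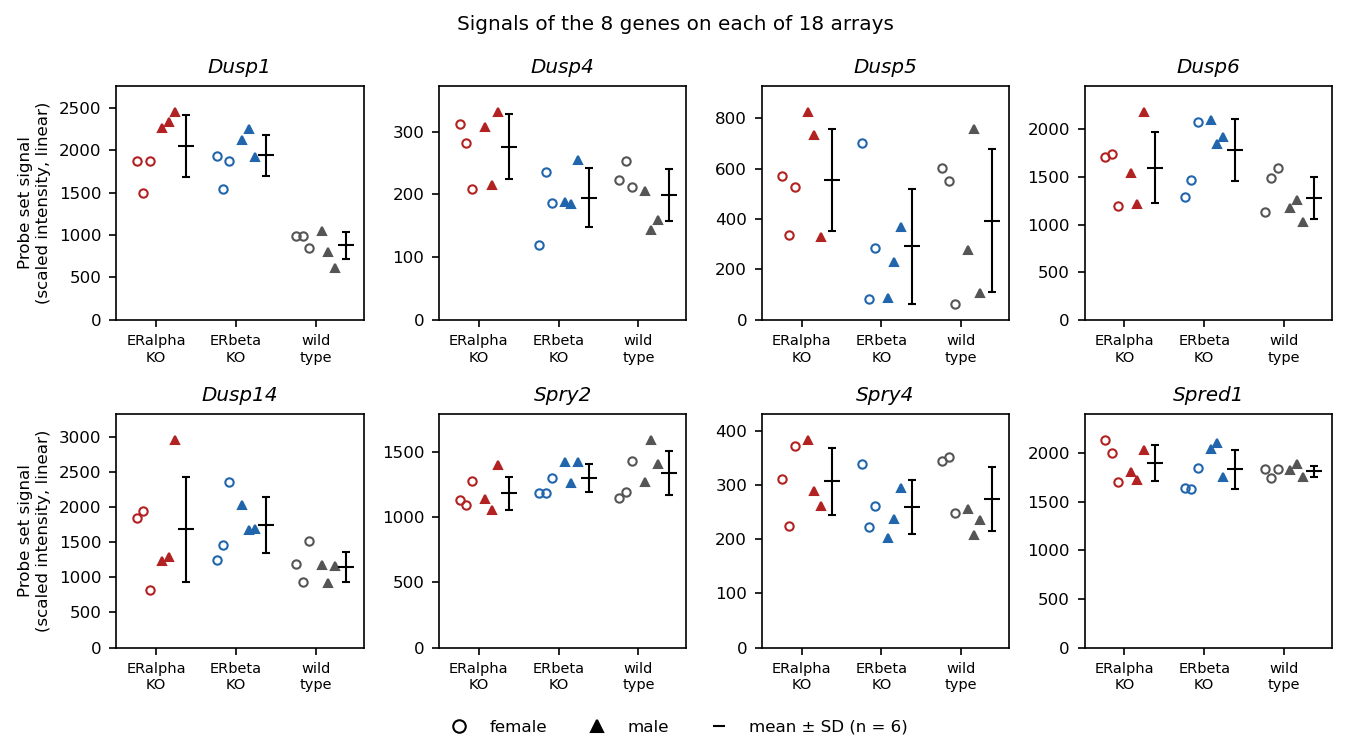
Signal of the leading probe set (linear scaled intensity, axes from 0) of each of the 8 genes on the 18 arrays, with ERalphaKO-labelled, ERbetaKO-labelled and wild type arrays from left to right, open circles for females, filled triangles for males, and bars for mean and SD of 6 arrays. The knockout groups lie wholly above wild type for Dusp1 (2051 and 1942 against 882 on average), and the groups overlap for each of the other 7 genes.

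The sequence upstream of the Dusp1 start is shown because Dusp1 is the gene that moved. It comes from RefSeq (GRCm38.p6, chr17:26508473-26508722, minus strand, the 250 bases before the annotated start, 5′ to 3′). Capitals mark matches to the cAMP response element TGACGTCA and its core TGACG.
Dusp1 upstream: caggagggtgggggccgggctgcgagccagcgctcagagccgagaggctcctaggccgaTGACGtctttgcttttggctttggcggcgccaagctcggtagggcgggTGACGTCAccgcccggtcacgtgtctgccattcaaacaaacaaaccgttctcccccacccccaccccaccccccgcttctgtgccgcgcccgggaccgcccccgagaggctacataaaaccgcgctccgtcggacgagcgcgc

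The cAMP response element is the site of CREB, a factor that neuronal activity and cAMP switch on. Motifs were searched on both strands in windows from 250 bases before to 50 bases after the start, in 32851 RefSeq promoters of 27025 genes, which hold 6 of the 8 genes. The full element began at -143 in Dusp1, counted from the start, and 1.79% of all promoters held 1 or more. The core TGACG matched at -191, -143 and, on the other strand, -140, the last pair lying inside the full element. It occurred at least once in 20.8% of promoters and at least 3 times in 1.03%. These are letter matches and not measured binding.

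The rise of Dusp1 was measured in both sexes. In females its log2 difference from wild type was 0.84 ± 0.15 (SE) in ERalphaKO-labelled brains and 0.87 ± 0.15 in ERbetaKO-labelled brains (adjusted p = 0.0223 and 0.0131). Of all genes, 0.360% and 0.291% passed in these comparisons of 3 arrays with 3. In males it was 1.48 ± 0.15 and 1.32 ± 0.15 (adjusted p = 7.943e-05 and 0.0003037), where 0.780% and 1.77% of genes passed. In the order of group means the ERalphaKO-labelled males came first at 2353 ± 93.8, followed by ERbetaKO-labelled males at 2099 ± 170, ERbetaKO-labelled females at 1785 ± 208, ERalphaKO-labelled females at 1750 ± 213, wild type females at 944 ± 81.3 and wild type males at 819 ± 216. Among neighbours in that order, the first pair and the step from ERalphaKO-labelled to wild type females did not overlap in range.

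The female minus the male difference of Dusp1 from wild type was -0.64 ± 0.21 for ERalphaKO-labelled and -0.45 ± 0.21 for ERbetaKO-labelled brains. Neither passed (limma adjusted p = 0.857 and 1.00), and no gene of the 13072 did in either interaction. At an unadjusted limma p under 0.05 there were 674 and 442 genes, and Dusp1 was the only one of the 8 among them in each. Females and males averaged over genotypes differed in 4 of 13072 genes (0.0306%) and in 0 of the 8 by limma, also at an unadjusted p under 0.05. The largest such difference among the 8 was -0.14 ± 0.08 for Dusp1, female minus male.

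**Figure D2:**
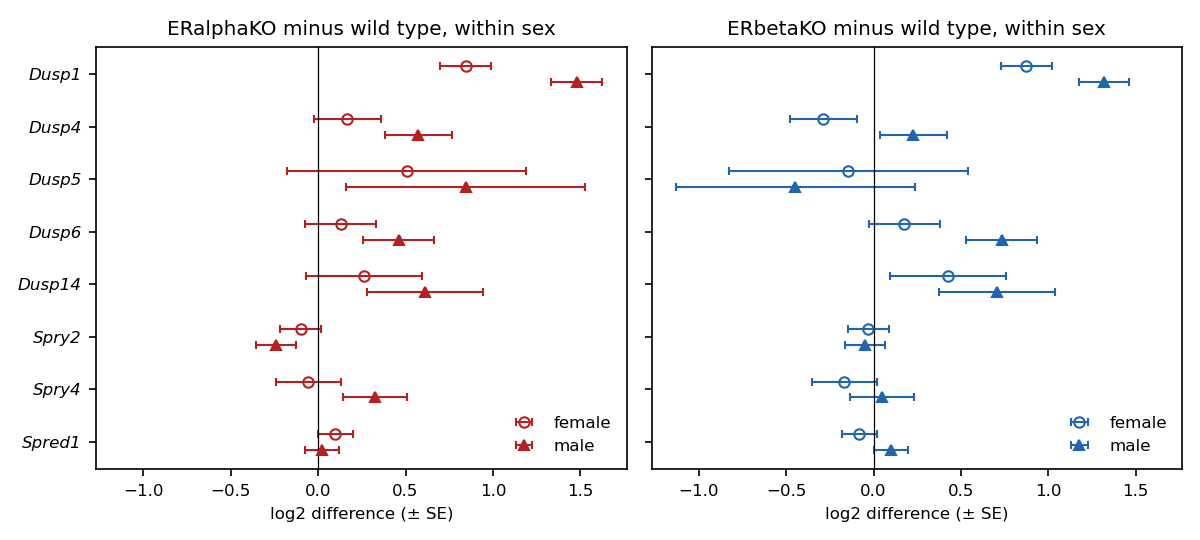
Log2 difference from wild type (horizontal axis, ± SE) of each of the 8 genes within females (open circles) and within males (filled triangles), for ERalphaKO-labelled brains on the left and ERbetaKO-labelled brains on the right, 3 arrays against 3. Dusp1 lies at 0.84 and 1.48 on the left and at 0.87 and 1.32 on the right, and the sex difference did not pass the test for any of the 8.

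RNA quality and tissue content were set beside the Dusp1 result. The Actb 3′ over 5′ control ratio was 1.28 ± 0.08 in ERalphaKO-labelled, 1.49 ± 0.18 in ERbetaKO-labelled and 1.20 ± 0.02 in wild type arrays, while the Gapdh ratio was 0.758, 0.756 and 0.769. The Actb ratio ran from 1.15 to 1.37 in ERalphaKO-labelled, from 1.34 to 1.84 in ERbetaKO-labelled and from 1.17 to 1.23 in wild type arrays. The last 2 ranges do not overlap, so a fit with this ratio as a covariate cannot separate it from the ERbetaKO label. In that fit the Dusp1 differences from wild type were 1.24 ± 0.10 (SE) for ERalphaKO-labelled and 1.34 ± 0.17 for ERbetaKO-labelled brains. Adjusted for a cerebellar marker score they were 1.16 and 1.14. On the arrays with strong Pcp2 signal alone they were 1.08 and 1.03. Dusp1 passed in all 33 alternative fits of both comparisons. Of 73 tested markers of 9 cell types and regions, 0 were higher by limma in either line, and 5 were lower in ERalphaKO-labelled brains and 6 in ERbetaKO-labelled brains. Of all 13072 genes, 401 and 381 were higher and 477 and 600 lower. The log2 level of the cerebellar markers ran from 8.22 to 11.92 over wild type arrays alone, so a difference in content could hardly be called. At an unadjusted p under 0.05, the higher markers numbered 1 in ERalphaKO-labelled brains and 0 in ERbetaKO-labelled brains.

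Dusp6 is a cytoplasmic phosphatase that acts on ERK, known as a feedback gene of fibroblast growth factor signalling. It read 1712, 1741, 1190, 1544, 1220 and 2182 in ERalphaKO-labelled brains, 1291, 1470, 2074, 2093, 1842 and 1915 in ERbetaKO-labelled brains, and 1128, 1493, 1597, 1173, 1253 and 1026 in wild type brains, females before males. In ERbetaKO-labelled brains 4 of 6 values lay above all wild type values, and in ERalphaKO-labelled brains 3 of 6 did. The log2 difference from wild type was 0.29 ± 0.14 (adjusted p = 0.229) in ERalphaKO-labelled brains and 0.45 ± 0.14 (adjusted p = 0.0632) in ERbetaKO-labelled brains. The second of these missed the threshold here but passed in 5 of 33 alternatives.

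Dusp14 is a small atypical member that lacks the kinase-binding domain of the classical MAP kinase phosphatases. Its signals were 1847, 1950, 821, 1231, 1284 and 2959 in ERalphaKO-labelled brains, 1243, 1456, 2351, 2034, 1672 and 1695 in ERbetaKO-labelled brains, and 1196, 928, 1511, 1173, 915 and 1157 in wild type brains. ERalphaKO-labelled arrays held both the lowest and the highest value of all 18. The difference from wild type was 0.44 ± 0.23 (adjusted p = 0.276) and 0.57 ± 0.23 (adjusted p = 0.144) for ERalphaKO-labelled and ERbetaKO-labelled brains, and 4 of 6 ERbetaKO-labelled values exceeded all wild type values.

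Dusp4, a nuclear phosphatase for ERK and JNK, was measured at low signal. It read 312, 282, 209, 307, 215 and 332 in ERalphaKO-labelled brains, 119, 235, 187, 187, 184 and 255 in ERbetaKO-labelled brains, and 223, 253, 211, 205, 143 and 160 in wild type brains. Its differences from wild type were 0.37 ± 0.14 (adjusted p = 0.107) and -0.03 ± 0.14 (adjusted p = 0.912). Of the ERalphaKO-labelled values, 4 of 6 lay above all ERbetaKO-labelled values and 0 lay below them all. ERalphaKO-labelled minus ERbetaKO-labelled brains gave 0.40 ± 0.14 (adjusted p = 0.0546), which missed the threshold and passed in 9 of 32 alternatives.

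Between the 2 knockout lines, 0 of the 8 genes passed in limma, while 15.4% of all genes tested did. At an unadjusted p under 0.05, Dusp4 was the only one of the 8, while 4203 of all 13072 genes were under it. The median difference of the 8 genes was 0.06 for ERalphaKO-labelled minus ERbetaKO-labelled brains, against -0.02 over all genes.

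**Figure D3:**
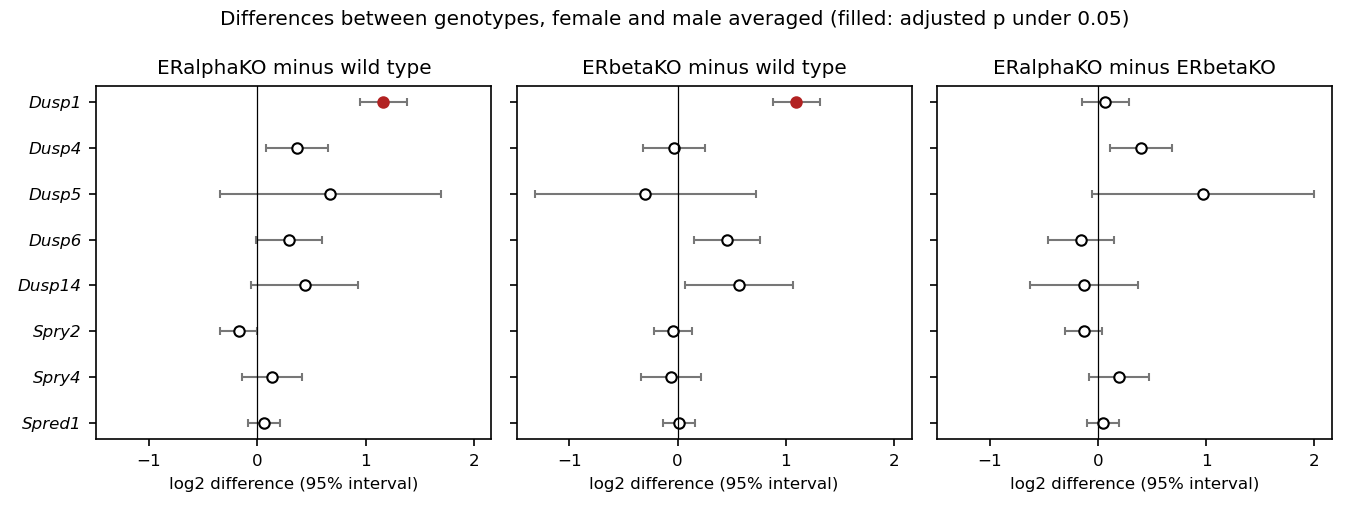
Log2 difference (horizontal axis) with 95% interval of each of the 8 genes for ERalphaKO-labelled minus wild type, ERbetaKO-labelled minus wild type and ERalphaKO-labelled minus ERbetaKO-labelled brains, 6 arrays each, with filled points past an adjusted p of 0.05. Dusp1 is the only filled point (1.16 and 1.10), and the interval of Dusp5 is the widest in each panel.

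Dusp5 is an inducible nuclear phosphatase specific for ERK, and on the log2 scale it had the largest SE of the 8 genes. It read 571, 338, 528, 825, 732 and 330 in ERalphaKO-labelled brains, 700, 82.6, 284, 86.6, 228 and 369 in ERbetaKO-labelled brains, and 601, 552, 64.5, 277, 758 and 108 in wild type brains. All 3 groups overlapped. The difference from wild type was 0.68 ± 0.48 (adjusted p = 0.426) in ERalphaKO-labelled brains and -0.30 ± 0.48 (adjusted p = 0.740) in ERbetaKO-labelled brains, with intervals from -0.35 to 1.70 and from -1.32 to 0.73. Leaving out single arrays moved these between 0.29 (without wild type female replicate 3) and 0.97 (without wild type male replicate 2), and between -0.68 (without wild type female replicate 3) and 0.01 (without ERbetaKO-labelled female replicate 2).

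The spread of Dusp5 went with cerebellar content. The cerebellar score was the mean log2 level of 12 markers, and it fell into separate ranges, 8.32 to 8.58 on the 7 arrays with weak Pcp2 and 9.57 to 12.21 on the 11 with strong Pcp2. Dusp5 read 64.5 to 338 on the first 7 arrays and 228 to 825 on the 11. Within the 11 arrays Pearson's r between Dusp5 and the score was 0.905 (permutation p = 0.00032, adjusted p = 0.00512 over 16 relations) and Spearman's rho 0.882 (permutation p = 0.00076, adjusted p = 0.0122). Without the 2 arrays farthest from the median score r was 0.891. Within the 7 arrays r was 0.285 (exact permutation p = 0.534) and rho 0.357 (exact permutation p = 0.444). There r became 0.857 without the 2 arrays farthest from the median score, so these few arrays do not settle the relation. For all 16 relations the values were permuted within a set without regard to genotype or sex. Group differences therefore enter r, rho and p.

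None of the other 7 genes passed 0.05 after adjustment over the 16 relations. Dusp6 and Dusp14 had r of -0.56 and -0.55 with the score within the 11 arrays (permutation p = 0.0733 and 0.0851, adjusted p = 0.454 each), which became 0.00 and -0.20 without the 2 farthest arrays. Between the 2 sets, weak Pcp2 first, the median signal was 1741 and 1291 for Dusp6 and 1950 and 1231 for Dusp14. It was 1395 and 1192 for Spry2, 236.2 and 311.7 for Spry4, and 1852 and 1803 for Spred1. For Dusp1 it was 1548 and 1874, and for Dusp4 211.5 and 215.3. These differences between the sets were not tested. Spry2 had r of -0.63 and rho of -0.79 within the 7 arrays, with p of 0.142 and 0.048 by the exact permutation test that became 0.568 and 0.384 after adjustment. With the score as a covariate the Dusp5 differences from wild type were 0.66 ± 0.22 (adjusted p = 0.0637) for ERalphaKO-labelled brains and 0.15 ± 0.23 (adjusted p = 0.717) for ERbetaKO-labelled brains. In the same order those of Dusp6 were 0.30 ± 0.12 and 0.38 ± 0.12 (limma adjusted p = 0.119 and 0.0630). Those of Dusp14 were 0.44 ± 0.16 and 0.39 ± 0.17 (limma adjusted p = 0.0850 and 0.138). On the arrays with strong Pcp2 alone they were 0.15 and 0.30 for Dusp6 and 0.24 and 0.45 for Dusp14. The arrays with strong Pcp2 numbered 4 ERalphaKO-labelled, 3 ERbetaKO-labelled and 4 wild type.

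**Figure D4:**
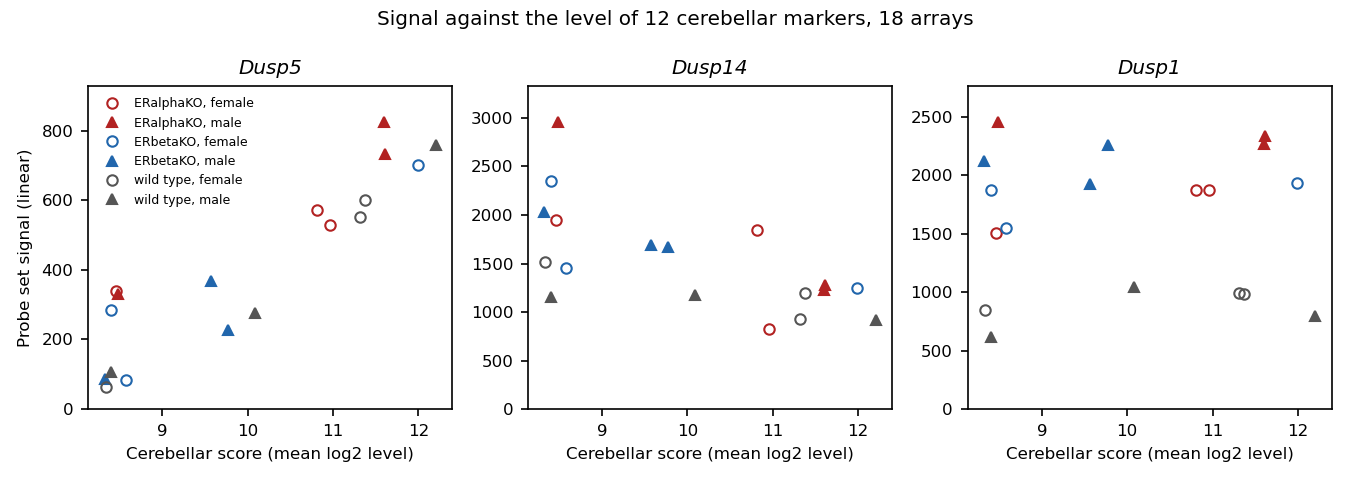
Signal (vertical axes, linear, from 0) of Dusp5, Dusp14 and Dusp1 against the cerebellar score (mean log2 level of 12 markers) on the 18 arrays, coloured by genotype and shaped by sex. Dusp5 climbs with the score among the 11 arrays above 9.57 (r = 0.905), while for Dusp1 the knockout arrays lie above the wild type arrays at low and at high scores.

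The sequence before the Dusp5 start is shown for the same element and for CArG boxes, the sites of serum response factor, through which ERK acts on many of its target genes. It is from RefSeq (GRCm38.p6, chr19:53528895-53529144, plus strand, 250 bases, 5′ to 3′). Capitals mark a pair of CArG boxes that adjoin each other and, after them, the core TGACG read on the other strand.
Dusp5 upstream: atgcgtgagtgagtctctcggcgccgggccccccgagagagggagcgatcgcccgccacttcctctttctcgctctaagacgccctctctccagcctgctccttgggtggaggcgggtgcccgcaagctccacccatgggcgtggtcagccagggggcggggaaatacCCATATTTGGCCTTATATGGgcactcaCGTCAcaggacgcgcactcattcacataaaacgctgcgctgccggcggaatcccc

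The CArG boxes began at -82 and -72 and the core at -55. A CArG box occurred in 1.63% of all promoters, and only 6 of 32851 (0.0183%) held 2 or more. The Dusp14 window held 1 ETS core CCGGAA at -65, and that of Spry2 held 1 at 34 beside the short estrogen response element AGGTCA at 22. These occurred at least once in 14.9% and 16.3% of promoters. The palindromic estrogen response element GGTCANNNTGACC, present in 0.07% of promoters, and the EGR site GCGNGGGCG, present in 5.55%, matched in none of the 6 windows, and Dusp6 and Spred1 matched none of the motifs. Dusp4 and Spry4 were not searched. For Dusp14 the window was chr11:84068308-84068607 on the minus strand, which lies inside the annotated gene, since that reaches to 84069256. The bases before that outer end were not searched.

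Spry2, Spry4 and Spred1 form the upstream arm of the feedback. Spry2 and Spry4 are Sprouty proteins that dampen Ras and ERK activation by growth factor receptors, and Spred1 holds Ras down by bringing the Ras inhibitor neurofibromin to the membrane. By their leading probe sets none of the 3 passed in the genotype comparisons by limma, also at an unadjusted p under 0.05. Spry2 read 1130, 1088, 1276, 1136, 1053 and 1395 in ERalphaKO-labelled brains, 1186, 1185, 1302, 1421, 1260 and 1419 in ERbetaKO-labelled brains, and 1148, 1192, 1427, 1265, 1591 and 1408 in wild type brains. Of the ERalphaKO-labelled values, 4 of 6 lay below all wild type values, and the difference was -0.17 ± 0.08 (adjusted p = 0.220). In ERbetaKO-labelled brains it was -0.04 ± 0.08 (adjusted p = 0.798).

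Spry4 read 225 to 383 with a median of 300 in ERalphaKO-labelled brains, 202 to 338 with a median of 250 in ERbetaKO-labelled brains and 208 to 352 with a median of 252 in wild type brains. Its differences from wild type were 0.13 ± 0.13 (adjusted p = 0.575) and -0.06 ± 0.13 (adjusted p = 0.813). Spred1 read 1700 to 2140, 1628 to 2102 and 1745 to 1887 in the same groups, with medians of 1902, 1802 and 1833. It had the narrowest intervals of the 8 genes, -0.09 to 0.21 for ERalphaKO-labelled and -0.14 to 0.16 for ERbetaKO-labelled minus wild type, both spanning 0.

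Spry2, Spry4 and Spred1 were read by more than 1 probe set, and these did not all move with the leading one. Tested over all 45037 probe sets, 2 of the 19 passed in ERalphaKO-labelled minus wild type (background 4.73%), 1 in ERbetaKO-labelled minus wild type (3.57%) and 1 in ERalphaKO-labelled minus ERbetaKO-labelled brains (9.42%). Dusp1 was the call in the second and one of those in the first. The dim Spry4 probe set 1445669_at was the other, at 243 ± 85 in ERalphaKO-labelled, 129 ± 28.1 in ERbetaKO-labelled and 97.6 ± 44.7 in wild type arrays. Its difference from wild type was 0.92 ± 0.20 (adjusted p = 0.0170) in ERalphaKO-labelled brains and 0.28 ± 0.20 (adjusted p = 0.464) in ERbetaKO-labelled brains.

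The 6 ERalphaKO-labelled values of 1445669_at ran from 141 to 337 and the 6 wild type values from 62.8 to 183, so the groups overlapped. The brighter Spry4 probe set gave 0.13 in the same comparison, and the faint probe sets 1422020_at and 1422021_at stayed at 11.8 to 96.4 over all arrays. The call in the last comparison was the dim Spry2 probe set 1421656_at, at 105 ± 42.6 in ERalphaKO-labelled, 195 ± 32.4 in ERbetaKO-labelled and 133 ± 40 in wild type arrays. ERalphaKO-labelled minus ERbetaKO-labelled brains gave -0.65 ± 0.17 (adjusted p = 0.0274), against -0.13 by the leading probe set. Which transcripts each probe set reads is not known here, so the disagreement is given as measured.

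Spred1 had 8 probe sets, and none passed in these comparisons by limma. At an unadjusted p under 0.05 there was 1 in ERalphaKO-labelled minus wild type, 1423162_s_at at 0.29 ± 0.10 (adjusted p = 0.120), and 1423162_s_at and 1443652_x_at in ERalphaKO-labelled minus ERbetaKO-labelled brains, at 0.23 and -0.29 (adjusted p = 0.163 and 0.0816). Their differences in ERalphaKO-labelled minus wild type ran from -0.18 to 0.29, and in ERbetaKO-labelled minus wild type from -0.07 to 0.11. The faintest, 1445228_at, stayed between 3.38 and 16.8 on all arrays.

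Within groups some of the 8 genes varied together. Over the deviations of the 18 arrays from their group means, Dusp6 and Dusp14 had a Pearson's r of 0.79, Dusp14 and Spred1 0.76, and Dusp6 and Spred1 0.71. Dusp5 and Spry4 had 0.66, while Dusp14 and Spry4 had -0.61. Dusp1 had no r above 0.46 in size with any of the other 7. These r values describe arrays that share tissue content and scaling.

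The genes most like each member by the same measure, over 18 arrays and out of 13072 genes, were other genes than the members. Being the highest of so many, these r values are large in part through that choice, and chance was not tested. For Dusp1 they were Tmem38b (r = 0.85), Slc9b1 (0.82) and Uvrag (0.81), and none of these passed in either knockout line against wild type. Over the 18 log2 values themselves their r with Dusp1 was 0.52, 0.20 and 0.01. Dusp14 lay nearest to 2210408K08Rik, Rgs4 and Otub2 (0.97, 0.96 and 0.96), with r of 0.93, 0.77 and 0.77 over the 18 log2 values. Dusp5 lay nearest to Cep76, Lypla1 and Ptpn22 (0.94, 0.93 and 0.93), with 0.82, 0.63 and 0.92 over the values. Dusp6 lay nearest to Rab11fip3, Sik2 and Cd302 (0.92, 0.91 and 0.91), and Dusp4 to Cerox1, Ctsz and Smu1 (0.94, 0.90 and 0.87). Spred1 was closest to another phosphatase of the family, Dusp3 (0.91), then to Tmem131 and Cops7a (0.91 and 0.90). Spry4 lay nearest to Gprin2, Nap1l2 and Acyp2 (0.92, 0.92 and 0.90), and Spry2 to Akirin2, Prrt3 and 6430604M11Rik (0.87, 0.86 and 0.80).

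The pathways around the 8 genes were described with 6 lists that hold 143 tested genes. The 2 kinase cascade lists also hold exchange factors and scaffolds. Their calls against wild type lay near or below the share over all genes. Of 26 tested genes of the ERK cascade, 0 passed in ERalphaKO-labelled brains in limma, against 6.72% of all genes. There 5 had an unadjusted p under 0.05, against 3041 of all 13072 genes. The smallest p belonged to the Ras exchange factor Sos2 (0.30 ± 0.09, adjusted p = 0.0518). In ERbetaKO-labelled brains Rasgrf2, a Ras exchange factor of neurons, rose by 0.49 ± 0.14 (adjusted p = 0.0467) and Map2k2, a kinase that activates ERK, fell by 0.45 on the log2 scale (adjusted p = 0.0281). The calls in ERbetaKO-labelled brains make up 7.69% of the list, close to the share over all genes. The list's median was 0.00 and 0.05 in the 2 lines. With median scaling 0 were higher and 4 lower in ERbetaKO-labelled brains.

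Of 23 genes of the JNK, p38 and ERK5 cascades, 1 passed in ERalphaKO-labelled brains, the JNK scaffold Mapk8ip2 at -0.36 ± 0.07 (adjusted p = 0.00816). That is 4.35% of the list, against 6.72% of all genes. In ERbetaKO-labelled brains 0 passed by limma, against 7.50% of all genes, and 7 had an unadjusted p under 0.05, against 3323 of 13072. The smallest p was that of the scaffold Mapk8ip1 (-0.49 ± 0.15, adjusted p = 0.0619). The list's medians were -0.07 and -0.07. With median scaling 0 passed in ERalphaKO-labelled brains, and 4, all lower, in ERbetaKO-labelled brains. Of 15 ETS and serum response factor genes, which carry ERK signals to promoters, 0 passed in either line in limma. With 6.72% and 7.50% of all genes passing, 0 of so few genes cannot be told from the background. By line, ERalphaKO-labelled first, 2 and 3 of the 15 had an unadjusted limma p under 0.05, against 3041 and 3323 of all 13072 genes. The smallest p values were those of the repressor Etv3 in ERalphaKO-labelled (0.26 ± 0.08, adjusted p = 0.0597) and of Elk1 in ERbetaKO-labelled brains (-0.31 ± 0.11, adjusted p = 0.0831). With median scaling 3 were lower in ERbetaKO-labelled brains.

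Among the other dual specificity phosphatases the calls went in both directions. This list goes by family, and no action on MAP kinases is implied for every member. Of 21 other dual specificity phosphatases, Ssh3 rose by 0.57 ± 0.15 in ERalphaKO-labelled brains, while Dusp8, which acts on JNK and p38, fell by 0.49 and Dusp13 fell by 0.60 on the log2 scale (adjusted p = 0.0349, 0.00672 and 0.0213). In ERbetaKO-labelled brains Dusp18 rose by 0.93 ± 0.26 and the JNK and p38 phosphatase Dusp16 fell by 1.30 on the log2 scale (adjusted p = 0.0423 and 0.0461). That is 14.3% and 9.52% of the list, against 6.72% and 7.50% of all genes. Between the lines 7 of the 21 passed (33.3%, against 15.4% of all genes), led by Ssh3 at 1.05 ± 0.15 and followed by Dusp26 at -0.43, Dusp2 at -0.53 and Dusp13 at -0.63, ERalphaKO-labelled minus ERbetaKO-labelled (adjusted p = 0.00130, 0.00949, 0.00958 and 0.0101). Of these 7, 1 was higher and 6 were lower, a split that became 3 and 3 with median scaling. Against wild type median scaling gave 0 higher and 2 lower in ERalphaKO-labelled brains, and 1 and 2 in ERbetaKO-labelled brains.

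Of 24 other inhibitors of Ras and ERK signalling, Errfi1, a feedback inhibitor of the epidermal growth factor receptor, rose by 0.48 ± 0.12 in ERalphaKO-labelled brains (adjusted p = 0.0281). In ERbetaKO-labelled brains the Ras inhibitor Rasal2 rose by 0.34 ± 0.09 and the cytokine signalling inhibitor Socs2 by 0.43 ± 0.12 (adjusted p = 0.0272 and 0.0473). The list's medians were -0.01 and -0.05, and the other 23 and 22 genes did not pass. These calls make up 4.17% and 8.33% of the list, close to the 6.72% and 7.50% of all genes. In ERbetaKO-labelled brains median scaling gave 0 higher and 2 lower.

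Of 34 tested genes that ERK is known to induce alongside Dusp1, 14 were higher and 1 was lower in each line, 44.1% of the list against 6.72% and 7.50% of all genes. On the arrays with strong Pcp2 alone 3 were higher in ERalphaKO-labelled brains and 6 in ERbetaKO-labelled brains, and adjusted for the Actb ratio 13 and 3 were. Fewer of all 13072 genes were called higher in these fits too. They numbered 46 and 52 on the strong-Pcp2 arrays and 220 and 25 with the Actb ratio, lines in the same order. Without either change they numbered 401 and 381. The list's median was 0.32 in ERalphaKO-labelled brains and 0.27 in ERbetaKO-labelled brains, against 0.30 and 0.22 on the strong-Pcp2 arrays and 0.42 and 0.33 with the Actb adjustment. With median scaling it was 0.31 and 0.15, with 14 and 10 genes higher, where the median of all genes lay at -0.04 and -0.12. In ERalphaKO-labelled brains Fos, Klf2, Egr2 and Bhlhe40 rose by 1.65, 0.61, 1.00 and 0.66 (adjusted p = 9.176e-07, 0.00156, 0.00327 and 0.00397), and in ERbetaKO-labelled brains Fos, Egr2, Arc and Egr4 rose by 1.71, 1.73, 2.14 and 1.00 (adjusted p = 5.674e-07, 3.23e-05, 0.00147 and 0.00254). The list was written with an earlier analysis of these arrays known, in which activity-induced genes were higher, so its count is not independent evidence. Of the 8 phosphatase, Sprouty and Spred genes 1 passed in each line.

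**Figure D5:**
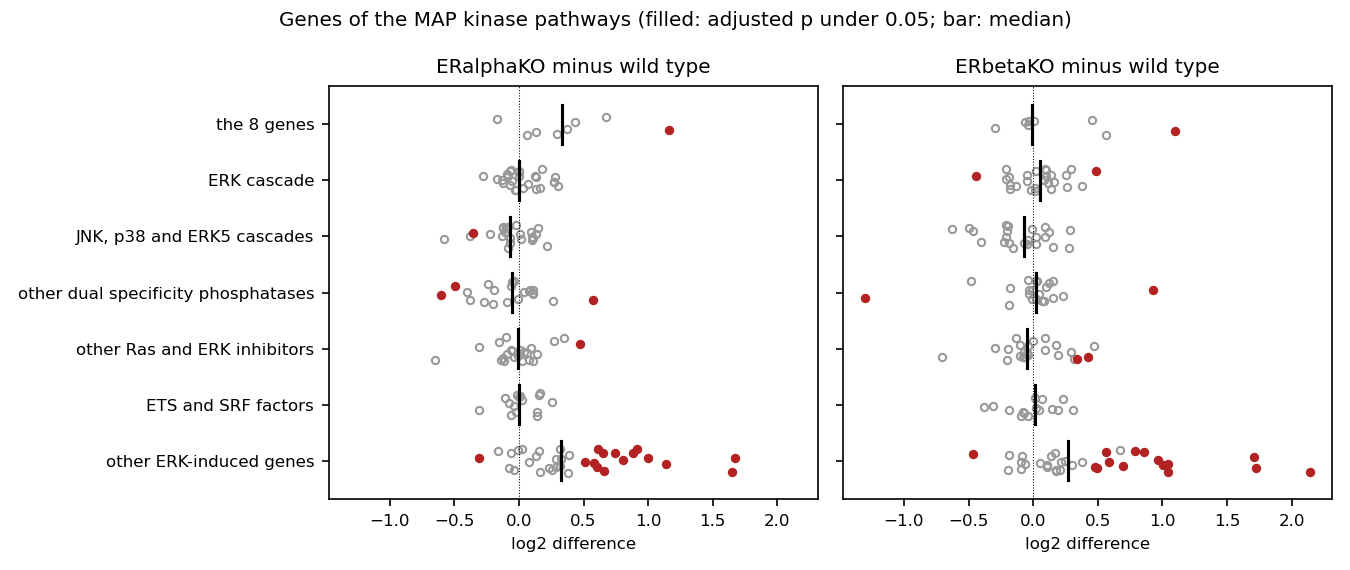
Log2 difference from wild type (horizontal axes) of every tested gene of the 8 and of 6 MAP kinase pathway lists, for ERalphaKO-labelled brains on the left and ERbetaKO-labelled brains on the right, with filled points past an adjusted p of 0.05 and bars at list medians. The other ERK-induced genes lie to the right (medians 0.32 and 0.27), while the kinase, phosphatase and inhibitor lists have medians between -0.07 and 0.05.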

How the data were processed

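Per the labels' protocols, whole brains were frozen, RNA was extracted with Trizol and RNeasy, and biotin label was added to 1 µg of it. The authors deposited linear intensities made with MAS5, per the submitters' processing notes, which give no version. The 2% trimmed mean was 500 in every array. The table holds no detection calls, and no depth applies to arrays, so the number of arrays limits the precision.

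Of 45101 probe sets, 64 controls were left out. Probe sets were named from the platform annotation, updated to RefSeq symbols where the identifiers matched. Signals were transformed as log2(signal + 63.63), each of 18193 genes was represented by its brightest probe set, and the 13072 at or above the 40th percentile (log2 level 7.58) were tested with limma 3.58.1 in R 4.3.3 (6 group means, intensity trend, 12 residual degrees of freedom). Benjamini-Hochberg adjustment ran over all genes. Genotype comparisons average the female and the male difference. All arrays entered the fit. The fit was tested on simulated data. Relations with the cerebellar score used two-sided permutation tests (100000 resamples for 11 arrays, exact for 7). The members, the pathway lists and the tests were chosen with earlier results of these data known. List genes were named by smallest adjusted p, up to 4 per comparison among those past the threshold, otherwise 1. Alternatives were other pseudocounts, scalings, filters, features, variance models, covariates and array sets, a replicate block, and omission of single arrays. Plots used Python 3.11.15 and matplotlib 3.10.9.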

Additional observations from a re-analysis of the deposited data

Results flagged for a closer look

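One value lay far from the others of its genotype on the log2 scale. The Spred1 probe set 1423161_s_at read 1374 in wild type female replicate 3, the lowest of the 6 wild type arrays, and on the log2 scale its gap to the next value was 0.692 of their whole range, above Dixon's critical value for 6 samples. On linear signals its gap was 0.657, and 3 further groups passed that value there but not on the log2 scale, namely Spry4 probe set 1445669_at (0.680) and Spred1 probe set 1460116_s_at (0.645) in wild type arrays and the faint Spred1 probe set 1445228_at (0.629) in ERalphaKO-labelled arrays, each by its highest value. Such a gap is expected by chance in about 1 of 20 groups, and 57 groups of 6 arrays were examined over the 19 probe sets. That probe set passed in none of the comparisons of genotypes.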

How the results depend on the processing

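Of 1558 values for single genes over the alternatives, 1541 kept their side of the threshold and 17 newly passed it. No value past the threshold lost it or reversed. In ERalphaKO-labelled minus wild type 1 gene, Dusp1, passed in all 33 alternatives, with differences of 1.06 to 1.25 and adjusted p up to 0.00121. In ERbetaKO-labelled minus wild type Dusp1 also passed in all 33 (0.97 to 1.34, adjusted p up to 0.00318), and the count was 2 with quantile normalization and with array weights, 3 with only the groups compared, and 1 to 2 when single arrays were left out. Each addition was Dusp6, joined by Dusp14 (adjusted p = 0.0499) with only the groups compared. The arrays whose omission added Dusp6 were ERalphaKO male replicate 3 (adjusted p = 0.0378) and ERbetaKO female replicate 1 (0.0427), and over all alternatives its adjusted p ran from 0.0274 to 0.305.

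In ERalphaKO-labelled minus ERbetaKO-labelled brains the count of 0 became 1 with quantile normalization, median scaling, the mean of all probe sets of a gene, no intensity trend and the cerebellar score as a covariate, 2 with array weights, and 0 to 1 when single arrays were left out. The gene was Dusp4 (adjusted p 0.0259 to 0.124 over its alternatives), except that the mean of all probe sets called Spry2, lower at -0.39, and array weights added Dusp5 at 1.28. Omitting ERalphaKO female replicate 3, ERalphaKO male replicate 2, ERbetaKO female replicate 2 or ERbetaKO male replicate 3 called Dusp4 (adjusted p = 0.0450, 0.0424, 0.0318 and 0.0469). The causes were not tested. Sex and interaction counts stayed 0 throughout.

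With the replicate block the counts were 1, 1 and 0, as without it, and the calls over all genes were 800, 787 and 1877, against 878, 981 and 2009. The numbers share no stated origin. Same-numbered arrays of different genotypes correlated between -0.402 and 0.432, with 6 of 18 pairs above 0.1. An array correlated best with its own number in 18 of 36 comparisons, each with 3 numbers to choose from, where chance alone gives 1 in 3. Whether the numbers mark a shared batch was not tested. The block could not be fitted for female minus male, since the numbers lie within a sex.

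Counts over all genes ranged from 75 to 2448 in ERalphaKO-labelled and from 122 to 2115 in ERbetaKO-labelled minus wild type, lowest with strong-Pcp2 arrays only and with adjustment for the Actb ratio, and highest with all probe sets. Between the lines they ranged from 756 to 4173. Leaving out single arrays gave 397 to 1082, 500 to 1067 and 1183 to 2243 in the same comparisons. Median scaling moved the median of all genes to -0.12 in ERbetaKO-labelled minus wild type, where Dusp1 still passed. The stricter filter left out Dusp4 and Spry4, and the mean of all probe sets left out Spry4.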
